A study of Mus musculus with 16 samples.

Results

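A set of 10 genes of the actin cytoskeleton and of T cell motility was followed across RNA-seq libraries of CD4 T cells sorted from mouse uterus and its draining lymph node. They are the myosins Myo1f, Myo1g and Myh9, the cytoplasmic actins Actb and Actg1, the actin-binding proteins Cfl1, Pfn1, Tmsb4x and Coro1a, and the membrane linker Msn. The set was chosen by the measured level of Myo1f, which was higher in uterine than in lymph node regulatory T cells (Treg, CD4 T cells that express Foxp3), so that difference is described here without a test. The 10 genes were found by symbol among the 49585 genes of the deposited count table, and all 10 were kept by both filters on low counts used here.

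All mice carried a Foxp3 reporter (Foxp3IRES-GFP) on a BALB/c background, and no group came from mice without it. The 4 groups had 4 libraries each. CD4+Foxp3- conventional T cells (CD4conv) and CD4+Foxp3+CD25- Treg were sorted from the uterus of non-pregnant mice, CD4+Foxp3+CD25+ Treg from their para-aortic lymph nodes, and CD4+Foxp3+CD25- Treg from the uterus of pregnant mice. The lymph node and uterine Treg therefore differed in CD25 as well as in tissue. Pregnancy was at day 6 to 8 by the source labels, while the titles of 3 of the 4 pregnant libraries give a later last day. Each library was a pool of 20 mice, or of 3 to 8 mice for the pregnant group, so p-values measure the spread between pools. CD4conv and pregnant uterine Treg were sequenced in batch 1, and lymph node and uterine Treg in batch 2. The pregnant Treg and CD4conv were thus compared within a batch. Cell type, pregnancy and pool size differ together there and cannot be told apart. In the comparisons of uterine Treg with CD4conv, of pregnant with non-pregnant uterine Treg and of pregnant uterine with lymph node Treg, batch and group cannot be told apart.

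Actin monomers assemble into filaments that push the leading edge of a crawling T cell forward, and myosin motors pull on those filaments. Profilin and thymosin beta 4 hold the pool of monomers, cofilin and coronin turn old filaments over, and moesin ties the filaments to the plasma membrane. The class I myosins Myo1f and Myo1g carry a single head and bind membrane lipids. The class II heavy chain Myh9 forms the bipolar filaments that contract the rear of the cell. A T cell that crawls through a tissue has to change shape and squeeze through narrow gaps, which relies on this machinery.

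The bases just before the annotated start of the 2 class I myosin genes and of Actg1 are shown because these genes differ in how they varied across the groups below. They come from the RefSeq promoter table for GRCm38.p6 and are written 5′ to 3′ on the strand of the gene. Capitals mark a match to a searched motif. In the first, the RUNX core TGTGGT starts at position -19 from the RefSeq start. In the second, there was no match. In the third, a CArG box, the sequence bound by serum response factor at many actin genes, starts at position -90, also from the RefSeq start. The bases shown stop at the gene start used for the counts, which lies 47 bases before the RefSeq start in Actg1 and 7 before it in Myo1g, and at it in Myo1f.
Myo1f, chr17:33555457-33555706, plus strand: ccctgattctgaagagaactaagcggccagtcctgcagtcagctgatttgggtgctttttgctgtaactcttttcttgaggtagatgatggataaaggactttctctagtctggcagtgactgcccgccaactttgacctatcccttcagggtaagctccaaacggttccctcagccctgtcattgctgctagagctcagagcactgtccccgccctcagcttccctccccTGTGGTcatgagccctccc
Myo1g, chr11:6520966-6521208, minus strand: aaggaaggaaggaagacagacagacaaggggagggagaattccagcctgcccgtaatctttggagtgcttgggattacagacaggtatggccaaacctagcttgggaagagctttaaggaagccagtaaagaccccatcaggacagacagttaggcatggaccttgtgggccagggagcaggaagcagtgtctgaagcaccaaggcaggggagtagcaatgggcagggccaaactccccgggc
Actg1, chr11:120348543-120348745, minus strand: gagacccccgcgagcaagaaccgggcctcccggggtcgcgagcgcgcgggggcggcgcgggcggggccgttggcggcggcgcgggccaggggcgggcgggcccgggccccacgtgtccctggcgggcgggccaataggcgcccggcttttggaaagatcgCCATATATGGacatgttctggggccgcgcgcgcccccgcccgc

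Both strands were searched for the CArG box, the RUNX core TGTGGT and the ETS core AGGAAGT. Of 32851 promoter windows of 250 bases, 1.47% held a CArG box, 14.05% the RUNX core and 7.69% the ETS core, and overlaps between motifs were not removed. Matches were kept only in the trimmed stretches, which were shorter in Msn (247 bases), Myo1g (243), Actg1 (203) and Tmsb4x (153). The shares are not matched to those lengths. Besides Myo1f, Tmsb4x had a RUNX core at position -114. The RefSeq windows of Coro1a lay inside the gene as annotated for the counts, and Actb was not among the windows used. A match is a description of these letters only.

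The libraries held between 1718558 and 15190212 counted fragments. Fragments on olfactory and vomeronasal receptor genes, which T cells do not use, were taken as a measure of background that is spread over exons. By that measure background made up from 8.69% of the counts in pregnant uterine Treg 3 to 53.6% in pregnant uterine Treg 4, and it was over 30% in 5 libraries, namely pregnant uterine Treg 2 and 4, uterine Treg 3 and 5 and lymph node Treg 3. Levels are given as CPM, the count divided by the library total and multiplied by 1000000. For levels with background subtracted, the library total was also reduced by its estimated background, so such values can exceed the CPM. Foxp3 ran between 191.7 and 814.4 CPM in the 12 Treg libraries and between 0.5 and 3.3 CPM in CD4conv. The T cell markers were detected in every library, 11 of 11. The 15 macrophage and dendritic cell markers, none of them at 0 in CD4conv, summed to 5284, 17959, 23857 and 1742 CPM in CD4conv 1, 2, 3 and 5. They summed to at most 1312 CPM in any Treg library. NK and CD8 T cell markers were also highest in CD4conv, at 532.3 to 2094 CPM against at most 81.2 CPM in the Treg libraries. The part of these cells in any difference from CD4conv was not tested, and values without CD4conv 2 and 3, whose macrophage sum was over 10000 CPM, stand beside the results below.

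Per exonic kilobase, the mean level over the 16 libraries put Tmsb4x first at 3472 CPM per kb and Actb second at 1340.0 CPM per kb. Coro1a (498.8), Pfn1 (389.9), Cfl1 (349.5), Actg1 (270.3) and Msn (158.5 CPM per kb) followed. The myosins were lowest, Myo1f at 40.1, Myo1g at 34.6 and Myh9 at 29.3 CPM per kb. Tmsb4x, the monomer-binding thymosin beta 4, was the 7th most counted of all 49585 genes by mean CPM, and Actb the 11th. Myo1f was the 658th.

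**Figure D1:**
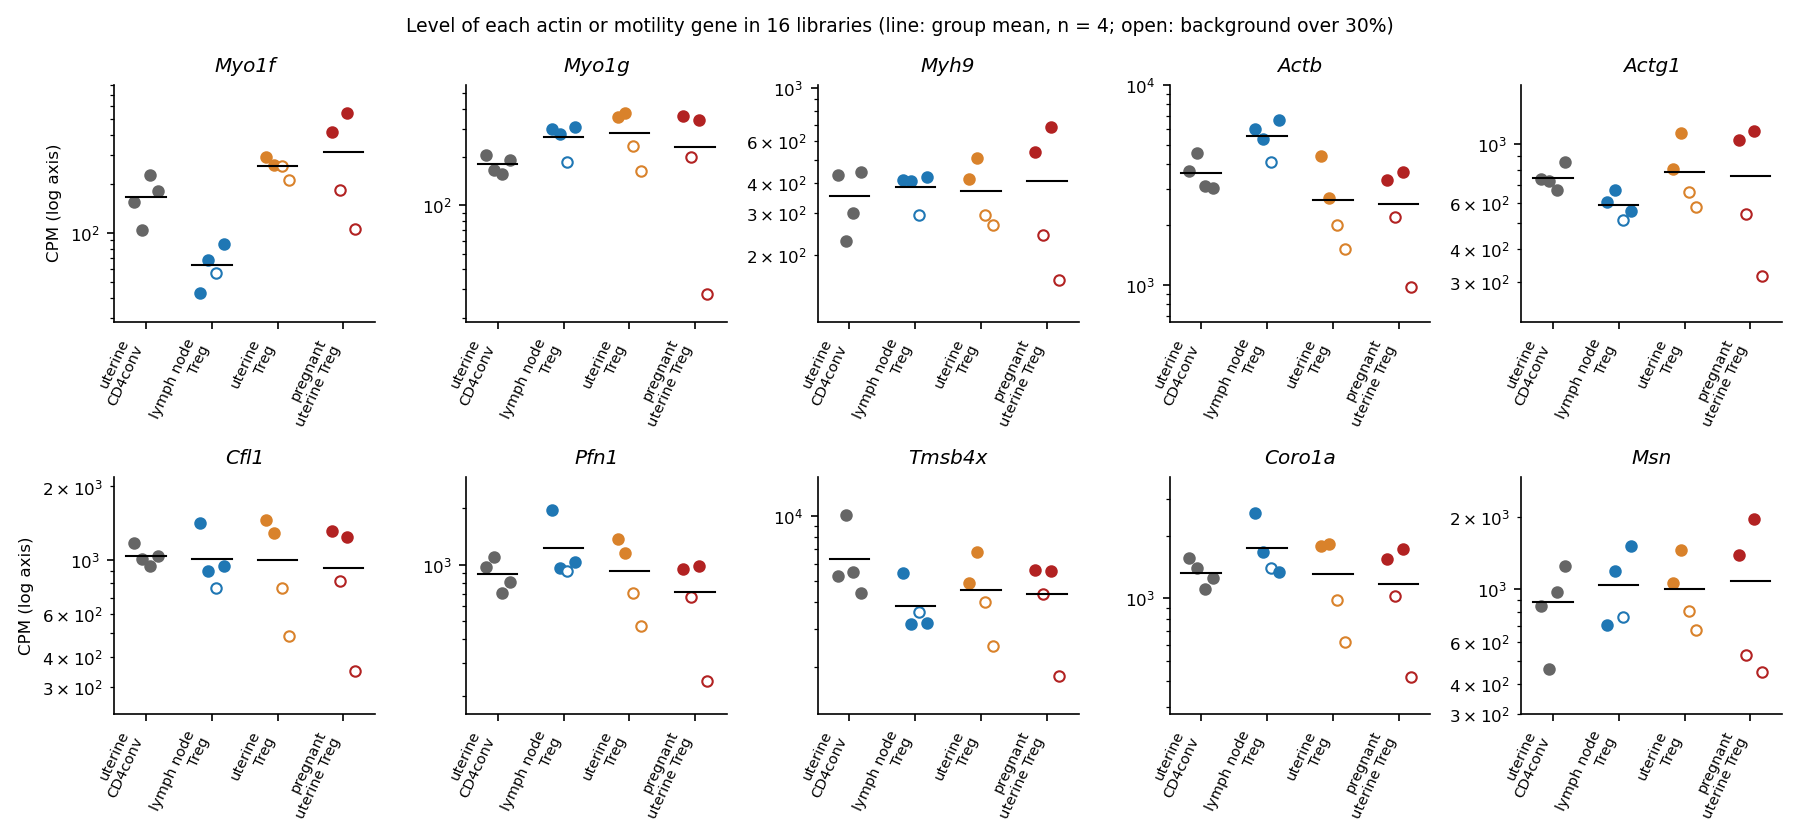
CPM of the 10 genes in each of the 16 libraries (vertical axis, log scale) by group, with a line at the group mean. Open points are the 5 libraries with an estimated background over 30%. Myo1f sits between 42.7 and 85.4 CPM in lymph node Treg and at 103.3 CPM or more in every uterine library.

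Myo1f (ENSMUSG00000024300, chr17:33555707-33607764, plus strand) is a long-tailed class I myosin found mainly in blood cells, where it acts in adhesion and migration. It was counted at 42.7, 68.1, 56.4 and 85.4 CPM in lymph node Treg 1, 2, 3 and 5. In uterine Treg 1, 2, 3 and 5 it stood at 293.1, 262.0, 257.7 and 211.8 CPM. In pregnant uterine Treg 1 to 4 it stood at 417.7, 183.7, 540.8 and 105.8 CPM. The lowest uterine value, in CD4conv 2 at 103.3 CPM, and the lowest Treg value from the uterus, in the library with the most background, both lay above all 4 lymph node values. CD4conv 1, 3 and 5 had 154.1, 224.8 and 179.8 CPM. The group means were 63.2 ± 18.1 CPM in lymph node Treg, 165.5 ± 50.7 in CD4conv, 256.1 ± 33.5 in uterine Treg and 312.0 ± 202.1 in pregnant uterine Treg (SD, n = 4 each). Of the neighbours in this order, CD4conv and lymph node Treg had values that did not overlap, while the others overlapped. With the estimated background subtracted, uterine Treg and CD4conv no longer overlapped either. The share of all genes without overlap on that scale was not counted, here or below.

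The fold change of Myo1f that led to the choice of these genes, in uterine over lymph node Treg, was 1.95 ± 0.62 on the log2 scale (± standard error) in a fit of all 30096 tested genes. It was 2.19 ± 0.32 in a fit of the 4719 protein-coding genes whose mean count was over 5 times the background expected for their length. With background subtracted, the mean of uterine Treg was 4.64 times that of lymph node Treg. Nothing is read from these values, which restate the rule. Among the 4719 genes, 7.73% had CPM values that did not overlap between these 2 groups, and Myo1f alone of the 10 genes was among them. After subtraction of background Actb did not overlap either, with the lower values in uterine Treg, and the share of all genes on that scale was not counted.

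Myo1g (ENSMUSG00000020437, chr11:6506548-6520965, minus strand) is the other class I myosin of lymphocytes and sets membrane tension and the turning of crawling T cells. Its levels in lymph node Treg were 298.3, 278.7, 186.8 and 308.9 CPM. In uterine Treg they were 356.1, 377.7, 233.5 and 162.8 CPM, and in CD4conv 206.2, 167.0, 156.3 and 192.6 CPM. The lymph node values thus lay within the range of the uterine Treg values, unlike those of Myo1f. Pregnant uterine Treg 1 to 4 had 361.7, 198.9, 339.3 and 28.3 CPM, and the last of these came to 0 once background was subtracted. Between uterine and lymph node Treg, Myo1g differed by 0.20 ± 0.36 on the log2 scale in the above-background fit.

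Myh9 (ENSMUSG00000022443, chr15:77760587-77842175, minus strand), the heavy chain of non-muscle myosin IIA, was the most counted of these myosins. Its group means were 352.3 ± 105.1 CPM in CD4conv, 384.2 ± 61.0 in lymph node Treg, 371.5 ± 110.7 in uterine Treg and 407.1 ± 248.8 in pregnant uterine Treg (SD, n = 4 each). All 4 groups overlapped. The single values ran from 158.1 CPM in pregnant uterine Treg 4 to 687.8 CPM in pregnant uterine Treg 3, both within 1 group.

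Because both counts of a ratio come from 1 library, the ratio of 2 genes does not depend on library size or scaling. The ratio of Myo1f to Myo1g counts lay between 0.143 and 0.302 in lymph node Treg, between 0.694 and 1.30 in uterine Treg and between 0.923 and 3.74 in pregnant uterine Treg. The highest of these was pregnant uterine Treg 4, where Myo1g was no higher than its expected background. Myo1f to Myh9 stayed between 0.669 and 0.786 in the 4 pregnant libraries although the CPM of each gene varied over 4-fold there. It lay between 0.517 and 0.872 in uterine Treg, between 0.356 and 0.746 in CD4conv and between 0.104 and 0.202 in lymph node Treg. In each of these ratios the lymph node libraries lay below every uterine library. Since Myo1f in lymph node and uterine Treg led to the choice of the genes, the ratios between those 2 groups describe that choice.

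**Figure D2:**
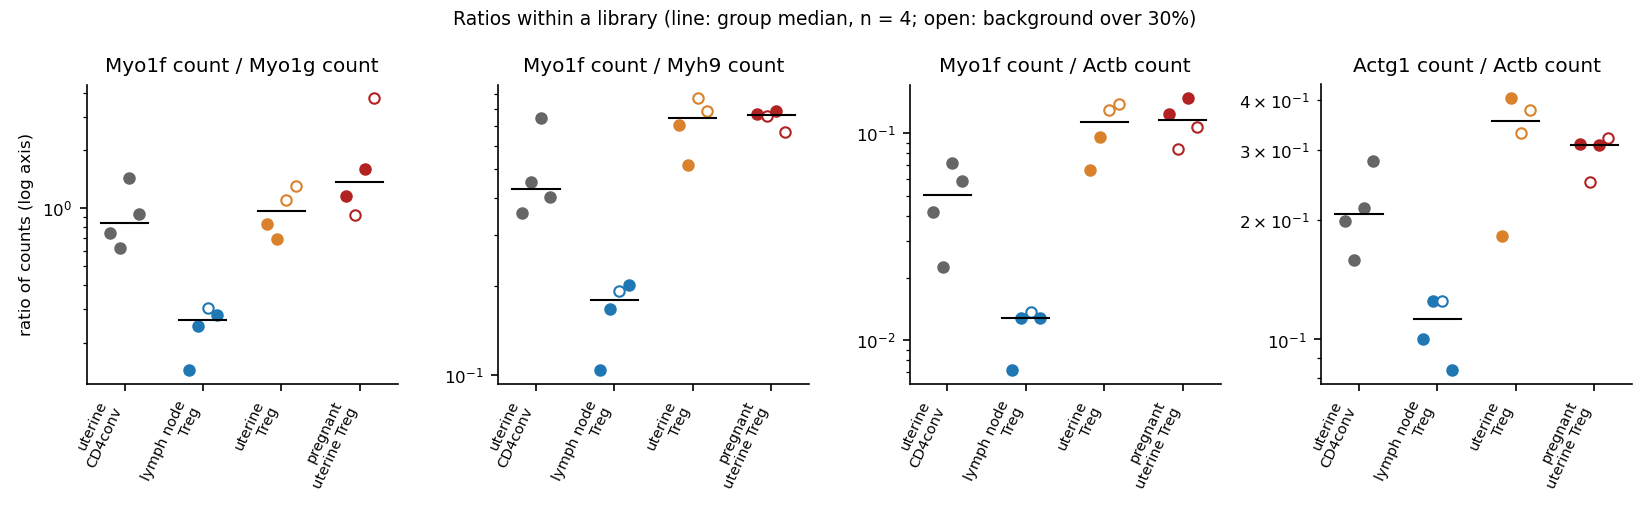
Ratios of counts within each library (vertical axis, log scale, no unit) for Myo1f to Myo1g, Myo1f to Myh9, Myo1f to Actb and Actg1 to Actb, by group, with a line at the group median. The lymph node Treg points are lowest in all 4 panels, with a median Actg1 to Actb ratio of 0.113 against 0.206 in CD4conv.

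Actb (ENSMUSG00000029580, chr5:142903115-142906754, minus strand) encodes beta-actin, the main actin of moving lamellipodia. Its CPM values were 5987, 5350.1, 4128 and 6684 in lymph node Treg 1, 2, 3 and 5. They were 4418, 2729.8, 1986 and 1519.9 in uterine Treg, and 3350.3, 2183, 3654 and 982.7 in pregnant uterine Treg 1 to 4. CD4conv had 3703, 4578, 3125 and 3056 CPM. The lymph node values lay above all pregnant values, and overlapped with uterine Treg only through uterine Treg 1. With background subtracted the lymph node range was 6593 to 8007 CPM, against 2324 to 5308 CPM in uterine Treg and 2094 to 4000.1 CPM in pregnant uterine Treg. In uterine over lymph node Treg the above-background fit gave -0.93 ± 0.26 on the log2 scale, a description like that of Myo1f since the rule used the same libraries.

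Actg1 (ENSMUSG00000062825, chr11:120345690-120348542, minus strand) encodes gamma-actin, which differs from beta-actin at only a few residues near its start. Lymph node Treg had the lowest mean, 585.8 ± 64.5 CPM, against 746.9 ± 80.0 in CD4conv, 785.2 ± 233.5 in uterine Treg and 755.7 ± 389.5 in pregnant uterine Treg (SD, n = 4 each). All neighbouring groups overlapped. The ratio of Actg1 to Actb counts lay between 0.0836 and 0.125 in lymph node Treg, between 0.158 and 0.281 in CD4conv, between 0.182 and 0.405 in uterine Treg and between 0.249 and 0.322 in pregnant uterine Treg. The 4 lymph node libraries were below the 12 uterine ones in this ratio. The group mean of beta-actin was higher there and that of gamma-actin lower, while single CPM values of each gene overlapped with uterine libraries. The count of Actg1 is uncertain because 39.4% of the windows of 100 bases in its transcripts also occur in other genes, among them Gm12715, Gm8399 and Gm16385. For Actb that share was 0.9%.

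The 4 proteins that hold monomers or turn filaments over showed wide ranges within groups. Cfl1, cofilin, severs filaments. Its means were within 929 to 1039 CPM in all 4 groups, and its 5 lowest values were those of the 5 libraries with over 30% background. Pfn1, profilin, loads monomers onto growing ends. Its mean was 1219.9 ± 497.8 CPM in lymph node Treg, where library 1 alone stood at 1963 CPM and the others at 963, 920.5 and 1033 CPM. In CD4conv the mean was 894.7 ± 174.2 CPM, in uterine Treg 924.6 ± 408.5 and in pregnant uterine Treg 711.7 ± 343.9 (SD, n = 4 each). All 4 groups overlapped.

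Tmsb4x, which binds actin monomers and keeps them from assembling, reached its highest value in CD4conv 2 at 10125 CPM. The other CD4conv libraries had 5281, 5486 and 4419 CPM. Lymph node Treg had 5437, 3154, 3585.0 and 3191 CPM, uterine Treg 4887, 6783, 3998 and 2506 CPM, and pregnant uterine Treg 5592, 4348, 5569 and 1813 CPM. These ranges overlapped in every pair of groups. Coro1a, coronin 1A, is needed for the survival and migration of naive T cells. Its mean was highest in lymph node Treg, at 1741.7 ± 563.3 CPM, and between 1178 and 1329.8 CPM in the other 3 groups. Msn, moesin, links cortical actin to membrane proteins such as CD44 and PSGL-1. Its group means ran from 882.4 ± 328.0 CPM in CD4conv to 1084.3 ± 727.2 CPM in pregnant uterine Treg (SD, n = 4 each), and all 4 groups overlapped.

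Part of the Cfl1 exons, 16.5% of their bases, overlaps Snx32 on the opposite strand, and 0.934% of the Coro1a exons overlaps Bola2. The library kit does not mark strand, so reads from such stretches cannot be told apart. In sorted pools of cells, a lower level can come from fewer cells of a type or from less RNA per cell, and these cannot be told apart in bulk libraries.

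**Figure D3:**
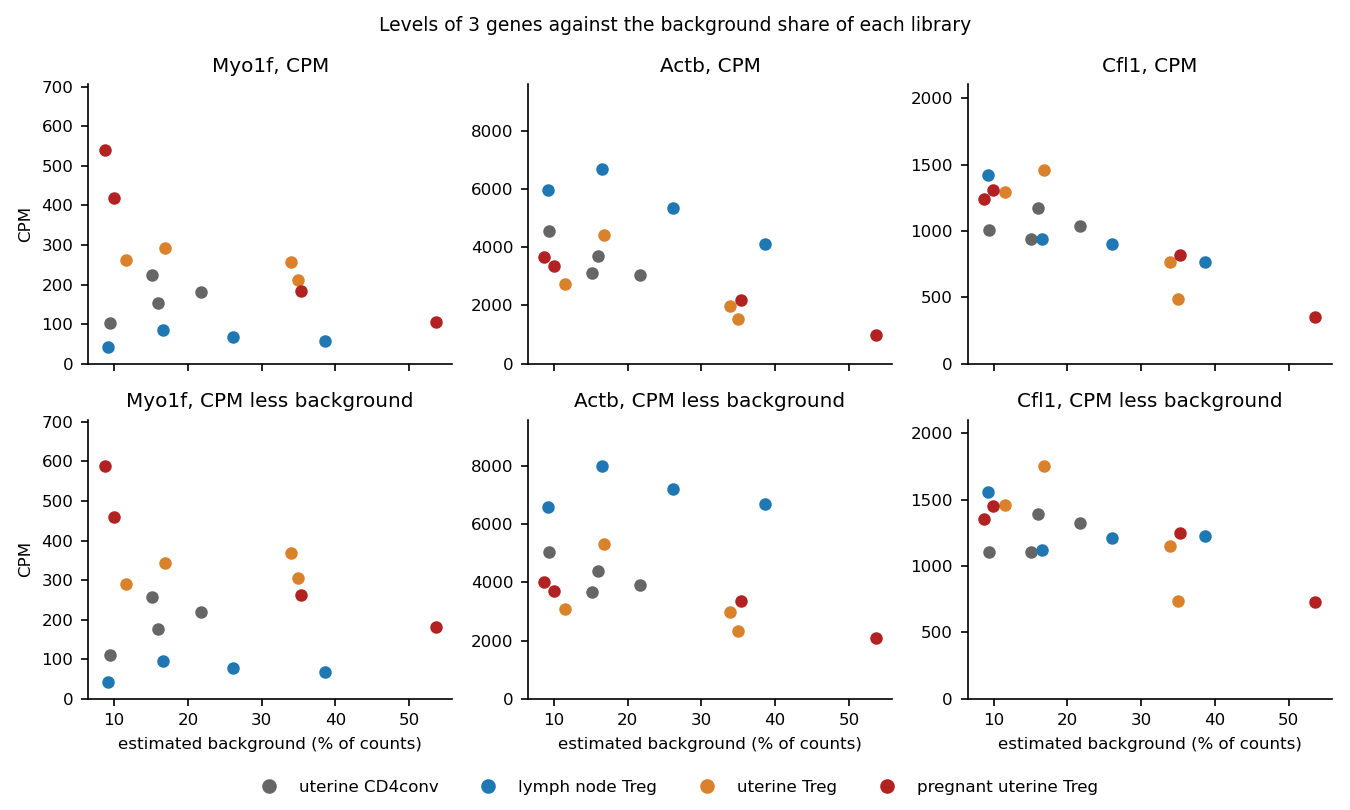
CPM of Myo1f, Actb and Cfl1 against the estimated background share of each library (horizontal axis, percent), before and after the background was subtracted. Cfl1 falls with background, with r = -0.886 over the 16 libraries on a log2 scale before and -0.675 after subtraction, and pregnant uterine Treg 4, at 53.6% background, has the lowest Actb and Cfl1 in both.

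Whether pregnant uterine Treg differ from conventional T cells of the non-pregnant uterus was tested within batch 1. The libraries were other than those whose Myo1f levels the choice of the genes names. The groups differ in pregnancy and pool size as well as in cell type. Myo1f averaged 312.0 CPM in pregnant uterine Treg and 165.5 CPM in CD4conv, 1.96-fold after background subtraction, and the ranges of the groups overlapped. The log2 fold change of Myo1f was 0.97 ± 0.30 in the above-background fit, which did not pass the threshold (edgeR quasi-likelihood test, adjusted p = 0.0529). With the replicate number as a block, a pairing with weak evidence, it was 1.19 ± 0.26 and passed (edgeR, adjusted p = 0.0135). Without the libraries over 30% background, which leaves pregnant uterine Treg 1 and 3, it was 1.40 ± 0.32 (edgeR, adjusted p = 0.0242), and Myo1g then also passed at 0.83 ± 0.20 (edgeR, adjusted p = 0.0300). Without the macrophage-rich CD4conv 2 and 3, Myo1f was 1.03 ± 0.36 (edgeR, adjusted p = 0.197). When 1 library at a time was left out, the value ran from 0.70 without pregnant uterine Treg 3 (edgeR, adjusted p = 0.169) to 1.18 without CD4conv 3 (adjusted p = 0.0413). It passed without CD4conv 3, pregnant uterine Treg 2 (1.10, adjusted p = 0.0484) or pregnant uterine Treg 4 (1.12, adjusted p = 0.0220), and not without any of the other 5 libraries. Myo1f thus passed in 5 of 11 alternatives of the above-background fit. In the fit of all genes it was at 1.02 ± 0.61 (edgeR, adjusted p = 1.00), and at 0.42 without pregnant uterine Treg 3.

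Of the 10 genes, 0 passed in this comparison among all 30096 genes tested, where 0.432% of genes passed, and 0 among the 4719 genes above background, where 8.39% passed. At an unadjusted p under 0.05 there were 0 of the 10 genes in the first fit, against 1443 of all 30096, and 1 in the second, against 1143 of 4719. DESeq2 called 0 of the 10 and 330 of all genes. None of the 10 genes had values that did not overlap between the groups, against 11.7% of the 4719 genes. The other 9 genes lay between -0.44 (Tmsb4x) and 0.38 (Myo1g) in the above-background fit, and Actb was at -0.42 ± 0.25 (edgeR, adjusted p = 0.322). Over the 10 genes, 5 of which were positive, the median was 0.02 on the log2 scale against 0.03 over all 4719 genes.

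Between uterine Treg of non-pregnant mice and CD4conv, which were sequenced in different batches, Myo1f and Myo1g had the largest positive log2 fold changes of the 10 genes. Myo1f was at 0.75 ± 0.30 in the above-background fit, given as a description because the uterine Treg values of Myo1f were among those that led to the choice of the genes. Myo1g was at 0.71 ± 0.36 and did not pass (edgeR, adjusted p = 0.293). Without the libraries over 30% background, Myo1g passed at 0.90 ± 0.20 (edgeR, adjusted p = 0.0192). That leaves uterine Treg 1 and 2, which had the higher Myo1g values of the group (356.1 and 377.7 CPM). Myo1g passed in 2 of 11 alternatives of the above-background fit (edgeR, adjusted p = 0.0192 to 0.860). Without CD4conv 2 and 3, Myo1f was at 0.80.

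In this comparison 0 of the 10 genes passed among all genes, where 0.518% passed, and 0 above background, where 6.1% passed. At an unadjusted p under 0.05 there were 0 of the 10 and 1605 of all genes in the first fit, and 919 of 4719 genes in the second. Of the 10 genes only Myo1f was under 0.05 in the second fit, where it is a description and supports nothing. DESeq2 called 0 of the 10 and 330 of all genes. The CPM values of none of the 10 genes were separate, against 10.3% of the genes above background. Tmsb4x was lowest, at -0.45 ± 0.29, and Actb was at -0.39 ± 0.25. Of the 10 genes 7 were positive, with a median of 0.12 against 0.02 over all 4719 genes.

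From non-pregnant to pregnant mice, the levels in uterine Treg were close to each other beside their errors. In the above-background fit Myo1f, again a description, was at 0.22 ± 0.30 on the log2 scale, Actb -0.03 ± 0.25 and Tmsb4x 0.00 ± 0.29. The 2 furthest from 0 were Pfn1 at -0.33 ± 0.29 and Myo1g at -0.33 ± 0.36 (edgeR, adjusted p = 0.874 and 0.894). All 10 genes overlapped between the groups.

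Of the 10 genes, 0 passed in either fit of this comparison, and 0 at an unadjusted p under 0.05 or by DESeq2. Among all genes 0.0% passed by edgeR, with 822 genes at an unadjusted p under 0.05 and 12 by DESeq2. Above background 0.0% passed, with 301 genes at an unadjusted p under 0.05. The share of genes above background without overlap was 1.59%.

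Pregnant uterine Treg were compared with lymph node Treg as the remaining pair, which shares the lymph node libraries with the comparison that led to the choice of the genes. It differs in tissue, pregnancy, CD25 gate and batch at once. The values of uterine and of pregnant uterine Treg against the same lymph node libraries are given side by side and are not independent. Because the low lymph node values of Myo1f were part of what chose the genes, Myo1f is described here with no test. In the above-background fit it was at 2.19 ± 0.32 in uterine and 2.42 ± 0.32 in pregnant uterine Treg. The ratio of background-subtracted means was 4.64 and 5.29. All 4 pregnant libraries lay above all 4 lymph node libraries.

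Actb had the opposite sign in both, at -0.93 ± 0.26 in uterine and -0.95 ± 0.26 in pregnant uterine Treg, and the pregnant value missed the threshold (edgeR, adjusted p = 0.0582). With the background subtracted the pregnant mean was 0.462 of the lymph node mean, and the groups did not overlap. Actg1 was at 0.51 ± 0.20 in pregnant uterine Treg (edgeR, adjusted p = 0.219), so the 2 actin genes had opposite signs. Pfn1 was at -0.61 ± 0.29 (edgeR, adjusted p = 0.313), and its values did not overlap once background was subtracted. The share of all genes without overlap on that scale was not counted, so the separations of Pfn1 and Actb there cannot be weighed. Coro1a was at -0.41 ± 0.27, Tmsb4x at 0.36 ± 0.29, Msn at 0.18 ± 0.32 and Cfl1 at 0.05 ± 0.25.

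Of the 9 genes other than Myo1f, 0 passed among all genes in this comparison, where 0.0% passed by edgeR, 934 of 30096 genes had an unadjusted p under 0.05 and DESeq2 called 45. None of the 9 was at an unadjusted p under 0.05 in that fit or called by DESeq2. Above background 0 of the 9 passed, against 2.35% of genes. Actb, Actg1 and Pfn1, 3 of the 9, had an unadjusted p under 0.05 there, against 744 of 4719 genes. Actb was the 1 of the 9 with no overlap in CPM, against 10.8% of the genes above background. The median of all 10 genes was 0.12 against 0.05 over the 4719 genes, with 6 of 10 positive.

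**Figure D4:**
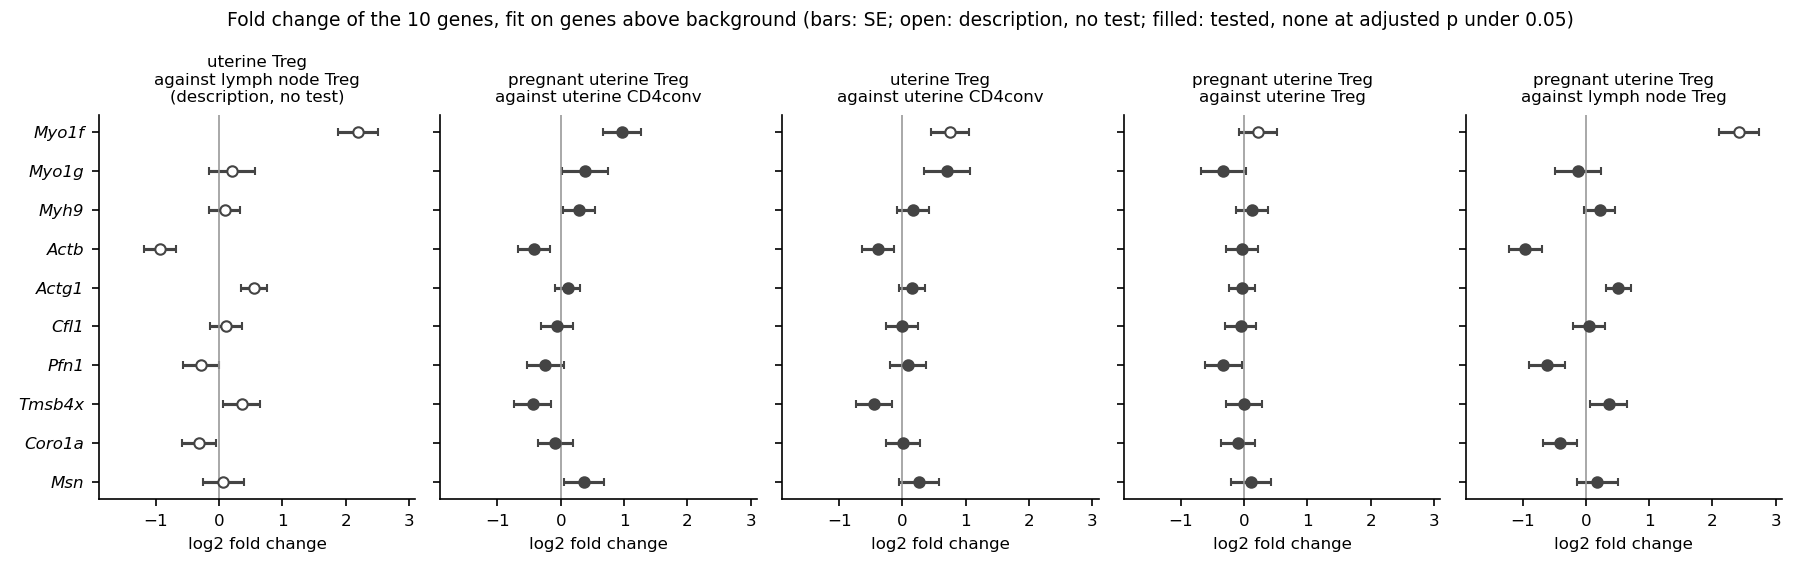
Log2 fold changes (horizontal axis) with standard errors for the 10 genes in the fit of 4719 genes above background, 1 panel for each of the 5 comparisons, with open points for descriptions (all of uterine over lymph node Treg, and Myo1f where the other comparisons use those libraries). None of the tested values (filled) passed at an adjusted p under 0.05, and Myo1f in pregnant uterine over CD4conv is at 0.97 ± 0.30.

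The rest of the actin machinery was read from 8 lists with 112 genes, of which 108 were tested and 76 were above background. They comprise the Arp2/3 complex, nucleation promoters and formins, turnover, capping and severing proteins, bundling and crosslinking proteins, other myosin chains, ERM proteins with integrin linkage, muscle actins, and serum response factor with its coactivators. Among all genes 0 of 108 passed in any of the 4 tested comparisons, with 5, 5, 2 and 0 at an unadjusted p under 0.05 against 2, 0, 0 and 0 called by DESeq2 (Gsn and Actg2, in pregnant uterine Treg against CD4conv). Those 4 comparisons are in the order in which they were described above. The following counts are for the genes above background, to be read against the shares of all genes given above.

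In pregnant uterine Treg against CD4conv, 2 of the 76 genes rose and 1 fell, a smaller share than the 8.39% of all genes above background. Gsn, gelsolin, which severs and caps filaments, fell by 2.18 ± 0.45 on the log2 scale (edgeR, adjusted p = 0.00475). Its levels were 239.9, 194.4, 373.3 and 121.2 CPM in CD4conv 1, 2, 3 and 5, and 76.2, 52.9, 60.0 and 7.56 CPM in pregnant uterine Treg 1 to 4, without overlap. Actg2, an actin of smooth muscle, rose by 2.17 ± 0.55 (edgeR, adjusted p = 0.0206) from a mean of 6.5 to 22.9 CPM. Myo1e, a long-tailed class I myosin like Myo1f, rose by 1.25 ± 0.37 (edgeR, adjusted p = 0.0460) from 30.7 to 59.7 CPM. Lymph node Treg, sequenced in the other batch, had means of 42.8 CPM for Gsn, 20.5 CPM for Actg2 and 71.9 CPM for Myo1e. For these 3 genes CD4conv thus stood apart from the lymph node Treg as well. The smooth muscle markers summed to 17.2 to 66.5 CPM in CD4conv and 48.9 to 138.5 CPM in pregnant uterine Treg. That sum includes Actg2 itself, so it is no separate sign of smooth muscle. The part of smooth muscle in the Actg2 result was not tested.

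The 3 calls were refitted without the macrophage-rich CD4conv 2 and 3, which leaves only CD4conv 1 and 5 in that group. Whether the macrophage content or the smaller group changed the calls was not tested. Without CD4conv 2 and 3, Gsn was at -1.73 ± 0.50 (edgeR, adjusted p = 0.0924), Actg2 at 2.14 (adjusted p = 0.181) and Myo1e at 1.46 (adjusted p = 0.136), so all 3 calls were lost while the values kept their sign, and Capg passed in their place at 1.47 (adjusted p = 0.0398). With the replicate block 6 genes passed, namely Gsn, Actg2, Myo1e, Capg (0.95), Tpm4 (0.85) and Add3 (1.36). Gsn also passed without any single library of either group. Actg2 was lost without CD4conv 1, 2 or 3 or pregnant uterine Treg 4 (edgeR, adjusted p = 0.0512 to 0.0603), and Myo1e without CD4conv 1, 2 or 5 or pregnant uterine Treg 2, 3 or 4 (edgeR, adjusted p = 0.0563 to 0.139). Capg caps filament ends, Tpm4 is a tropomyosin and Add3 an adducin. These last 3 are named after their values were seen. By list, the Arp2/3 complex had a median of -0.17 with 3 of 9 genes positive, and the nucleation promoters and formins 0.32 with 10 of 12 positive. None of the genes of these 2 lists passed.

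In uterine Treg against CD4conv, 3 of the 76 genes rose and 1 fell, a smaller share than the 6.1% of all genes above background. Gsn fell by 1.62 ± 0.44 (edgeR, adjusted p = 0.0347), to a mean of 68.2 CPM from 232.2 CPM. Actg2 rose by 1.93 ± 0.55 (edgeR, adjusted p = 0.0420), Myo1e by 1.45 ± 0.38 (adjusted p = 0.0268) and Skap1, an adaptor that couples the T cell receptor to integrins, by 0.96 ± 0.25 (adjusted p = 0.0289). Gsn, Actg2 and Myo1e had the same sign here as in pregnant uterine Treg, against the same CD4conv libraries. Without CD4conv 2 and 3 none of the 76 genes passed, and Gsn was at -1.16 (edgeR, adjusted p = 0.432), Myo1e at 1.66 (adjusted p = 0.0868), Actg2 at 1.90 (adjusted p = 0.304) and Skap1 at 0.68 (adjusted p = 0.328). Each of the 4 calls was also lost when any of 4 to 7 single libraries was left out (edgeR, adjusted p = 0.0568 to 0.143).

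Between pregnant and non-pregnant uterine Treg, 0 of the 76 genes passed, and 1 had an unadjusted p under 0.05. The median was 0.01 on the log2 scale against 0.00 over all genes. In pregnant uterine against lymph node Treg 1 of the 76 genes rose, a smaller share than the 2.35% of all genes above background. That gene was Gmfg, the glia maturation factor of blood cells that takes branches off filament networks, at 1.14 ± 0.28 (edgeR, adjusted p = 0.0335). Its values overlapped, at 49.0 to 102.4 CPM in the lymph node and 78.9 to 143.5 CPM in pregnant uterine Treg. The call was lost without the libraries over 30% background (1.05, edgeR adjusted p = 0.277), and without any single library of the 2 groups other than lymph node Treg 1 (adjusted p = 0.0577 to 0.129). Of the 76 genes 58 were positive, with a median of 0.30 against 0.05 over all genes. The nucleation promoters and formins had 11 of 12 positive with a median of 0.47, and the bundling and crosslinking proteins 10 of 12 with 0.35. The lists were not tested as sets, and the share of positive values over all genes was not counted. Tissue, pregnancy, CD25 gate and batch differ together in this comparison.

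The best counted genes of the other lists showed no call. Of the Arp2/3 complex, which branches filaments, Arpc2 had its lowest mean in lymph node Treg (602.2 CPM) and its highest in uterine Treg (751.9 CPM), with 685.4 in CD4conv and 690.6 in pregnant uterine Treg. Actr3 had its highest mean in lymph node Treg, 645.1 CPM, and Arpc1b its lowest, 401.5 CPM. Among the bundling and crosslinking proteins, Lcp1, plastin 2, was the most counted, from 804.2 ± 267.2 CPM in CD4conv to 1070.1 ± 699.5 in pregnant uterine Treg, with 956.8 ± 225.4 in lymph node Treg (SD, n = 4 each). Lsp1, an actin-binding protein of leukocytes, averaged 613.0 CPM in lymph node Treg and 746.5 to 866.7 CPM in the other groups. Flna, filamin A, ran from 567.7 ± 103.5 CPM in lymph node Treg to 926.8 ± 319.1 CPM in uterine Treg, and Iqgap1 from 346.4 ± 76.7 to 576.1 ± 43.0 CPM in CD4conv (SD, n = 4 each). Iqgap1, a scaffold of the cell cortex, was at 0.85 ± 0.22 in pregnant uterine against lymph node Treg (edgeR, adjusted p = 0.0514). Srf itself was low, at 28.0 to 47.0 CPM.

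**Figure D5:**
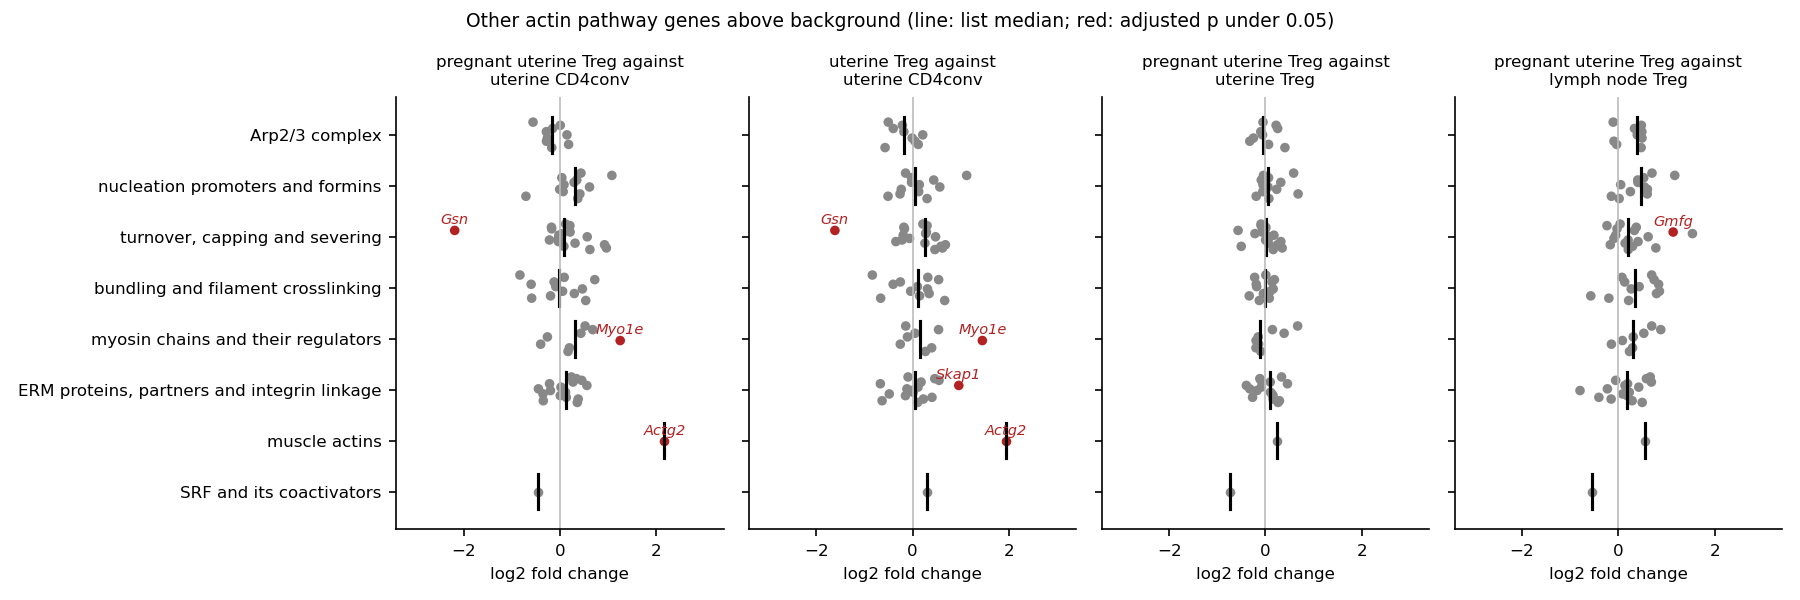
Log2 fold changes (horizontal axis) of the 76 other actin genes above background by list, 1 panel for each of the 4 tested comparisons, with a line at the median of each list. Red named points passed at an adjusted p under 0.05, among them Gsn at -2.18 and Actg2 at 2.17 in pregnant uterine Treg against CD4conv.

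The protein-coding genes whose log2(CPM + 1) followed that of Myo1f most closely over the 16 libraries were Itgb1 (Pearson r = 0.908), Anxa2 (0.887), Emb (0.854), S100a11 (0.854) and Itgb3 (0.850), among 8513 genes with a mean of at least 20 CPM. Itgb1 and Itgb3 are integrin beta chains, which carry adhesion to matrix. These correlations share library depth and background and are given without a test. They include the uterine and lymph node Treg libraries whose Myo1f levels led to the choice of the genes, so in part they describe that choice. With background subtracted, r was 0.912 for Itgb1, 0.879 for Anxa2, 0.847 for Emb, 0.842 for S100a11 and 0.648 for Itgb3. Itgb1 had group means of 338.2 CPM in lymph node Treg, 1041 in CD4conv, 1388.8 in uterine Treg and 1147 in pregnant uterine Treg. Anxa2, a membrane-binding annexin, had 51.2, 130.0, 159.0 and 166.5 CPM in the same order. Of the other 9 genes of the set, Actg1 was nearest at r = 0.622, and Msn (0.436), Myh9 (0.379), Myo1g (0.253), Tmsb4x (0.245) and Cfl1 (0.211) followed. Actb (-0.335), Pfn1 (-0.126) and Coro1a (-0.070) were negative. With background subtracted, Actg1 was at 0.688, Myo1g at 0.051 and Actb at -0.664.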

How the data were processed

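RNA-seq counts came from 16 libraries, each a pool of mice. Per the labels' protocols, CD4-enriched cells were sorted, cDNA was made with SMART-Seq v4 and libraries with Nextera XT, and paired ends were sequenced in 2 batches. Per the submitters' processing notes, Trimmomatic, HISAT2, SAMtools, featureCounts and DESeq2 were used with build GRCm38, and their versions were not given in the sources read here. The authors deposited raw counts per gene, not normalised, and the 16 single files were identical to the joint table. GENCODE M21 named 49326 of 49585 genes.

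CPM is the count divided by the library total and multiplied by 1000000. The tests were edgeR 4.0.16 quasi-likelihood fits (R 4.3.3, TMM scaling, filterByExpr, all 16 libraries) with Benjamini-Hochberg adjustment over 30096 genes, or over the 4719 protein-coding genes above background, and a threshold of 0.05. Background per exonic base was taken from 1427 olfactory and vomeronasal receptor genes. For background-subtracted levels the expected background of a gene was taken off its count, to no less than 0. The result was divided by the library total less its estimated background and multiplied by 1000000. DESeq2 1.42.0, other scalings and filters, 2-group fits, a replicate block and left-out libraries were alternatives. The standard error is the fold change divided by the root of its F statistic. One group of actin pathway genes is not reported here. The members and lists were chosen with earlier results of these data known. Named genes are all members, from each list up to 4 genes that passed or else those with the highest mean CPM, and the 5 genes most like Myo1f.

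Pairing was checked by correlating deviations from group means. Same-numbered pregnant uterine Treg and CD4conv libraries gave r = 0.109, 0.112 and 0.100. Those with different numbers gave r from -0.194 to 0.109, so the evidence for pairs is weak. The fits of all genes and of genes above background had no pairing term. The numbers were used as pairs only in the replicate block, an alternative. In the other comparisons the signs of same-numbered libraries were mixed. The replicate block nevertheless covered all 16 libraries. Pregnant uterine Treg 4 and CD4conv 5 have no partner. The pairing comes from the numbers in the labels, which do not say what a number marks.

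Marker lists were also summed for Treg (204.7 to 465.6 CPM in CD4conv, 1111.7 to 4369 in Treg libraries), neutrophils (3.81 to 185.0 CPM over all libraries, S100a8 at 0 in lymph node Treg), B cells (31.4 to 172.2), stroma and decidua (21.1 to 1077.9, Hoxa11 at 0 in lymph node Treg), epithelium (18.1 to 534.5), endothelium (113.4 to 548.4) and erythroid cells with platelets (7.94 to 227.1). T cell markers summed to 1592 to 8298 CPM, and smooth muscle markers to 17.2 to 149.5 CPM.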

Additional observations from a re-analysis of the deposited data

Results flagged for a closer look

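In 2 of the 40 sets of 4 values tested (10 genes in 4 groups), the end value lay far from the other 3 by Dixon's 95% criterion, and chance gives about 1 in 20. Myh9 was low in lymph node Treg 3, at 293.3 CPM against 407.4 to 423.7 CPM in the other lymph node libraries, and that library had an estimated background of 38.6%. Pfn1 was high in lymph node Treg 1, at 1963 CPM against 920.5 to 1033 CPM, and that library had an estimated background of 9.21%, the lowest of its group.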

How the results depend on the processing

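Of the 10 genes, the count past the threshold among all genes was 0 in each tested comparison and became 1 in pregnant uterine Treg against CD4conv without the libraries over 30% background (Myo1f, 1.70). In pregnant uterine against lymph node Treg it became 1 above background, 1 by DESeq2 and 1 without the libraries over 30% background. Above background, the counts against CD4conv were 0, and with the replicate block they became 1 for pregnant uterine Treg (Myo1f) and 1 for uterine Treg (Myo1g, 0.70, edgeR adjusted p = 0.0489). The block changed no other count of the 10 genes. Without the libraries over 30% background they became 2 and 1, and leaving out single libraries gave 0 to 1 for pregnant uterine Treg. The 1 gene against lymph node Treg was Myo1f throughout, which was chosen on those libraries, so this count supports nothing.

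Of the other actin genes, 0 passed among all genes in pregnant uterine Treg against CD4conv, 1 with library totals (Gsn), 3 above background, 2 by DESeq2 and 1 without the libraries over 30% background (Add3). The count rose from 0 to 4 above background for uterine Treg against CD4conv and from 0 to 1 for pregnant uterine against lymph node Treg. Above background, the 3 calls became 6 with the replicate block, 1 without the macrophage-rich CD4conv 2 and 3, and 1 to 4 when single libraries were left out. The 4 calls of uterine Treg against CD4conv became 5 with the block (Wasl in addition, 1.14, edgeR adjusted p = 0.0338), 0 without those libraries and 1 to 3 when single libraries were left out. The 1 call against lymph node Treg became 0 with the block, 0 without the libraries over 30% background, and 0 to 2 when single libraries were left out (2, Tagln2 and Iqgap1, without pregnant uterine Treg 4). The causes were not tested.

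Over all genes, the 130 calls of pregnant uterine Treg against CD4conv became 396 above background, 330 by DESeq2, 230 without the libraries over 30% background, 78 with the 2 groups alone and 27 without CD4conv 2 and 3. The 156 calls of uterine Treg against CD4conv became 288, 330, 427 and, without CD4conv 2 and 3, 24. The 0 of pregnant uterine against lymph node Treg became 111 above background, 45 by DESeq2, 11 without the libraries over 30% background and 5 with library totals.

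Other scalings moved the median of all genes by up to 0.34 on the log2 scale. Re-estimated over the alternatives, the fold changes of the 10 genes had the opposite sign in 18 of 180 values for pregnant uterine Treg and 37 of 180 for uterine Treg against CD4conv, 52 of 170 between pregnant and non-pregnant, and 19 of 170 against lymph node Treg, none of these called. The above-background fit as a result of its own, its block and the removal of macrophage-rich libraries were chosen after seeing the data. Subtracting background, with the smaller library total that goes with it, moved 10 of 40 group means by over 1 SD. Background and depth limit what pregnant uterine Treg 4 can show, at 53.6% background.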
